A study of Homo sapiens with 18 samples.

Results

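The 31 genes described here encode the enzymes that build cholesterol and fatty acids and the proteins that control them. They were taken by name from the 39859 gene symbols counted in the series, and by role they comprise 16 sterol enzymes, 4 regulators, 4 enzymes of fatty acid synthesis, 4 desaturases and 3 elongases. All 31 were listed in the files and 29 had enough reads to be tested. The counts came from QuantSeq, a 3′ mRNA sequencing method that reads the end of each polyadenylated transcript, in RKO-iCas9 cells, a human colon carcinoma line in which doxycycline turns on Cas9 and whose Cas9 line was derived from single cells. FACS-sorted cells carried a constantly expressed guide RNA against ERH (sgERH) or, as the control, against the AAVS1 safe-harbour site (sgAAVS1), and both received 100 ng/mL doxycycline for 5 days. Each was then given IFNγ at 25 ng/mL, IL-1β at 10 ng/mL, or water as the non-treated state (NT), for 4 h, which made 6 groups with 3 biological replicates apiece according to the labels. The comparisons asked what ERH targeting did to lipid synthesis transcripts in each treatment, and whether it altered their response to either cytokine.

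Cholesterol is made from acetyl-CoA by way of mevalonate, farnesyl diphosphate, squalene and lanosterol, and fatty acids are made from the same acetyl-CoA by way of malonyl-CoA. Both branches are controlled by the SREBP transcription factors, which SREBF1 and SREBF2 encode. SCAP escorts SREBP out of the endoplasmic reticulum when sterol is scarce, INSIG1 holds the pair back when sterol is plentiful, and the released factor works at promoters together with the CCAAT-binding factor NF-Y. Desaturases then place double bonds in fatty acids and elongases lengthen them, which sets the makeup of membranes.

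Of the 18 libraries, the 15 that the study kept after a principal component analysis were used, with 4987127 to 5986338 counts each. They comprised 3 sgERH NT, 2 sgAAVS1 NT, 2 sgERH IFNγ, 3 sgAAVS1 IFNγ, 3 sgERH IL-1β and 2 sgAAVS1 IL-1β libraries. The labels call the replicates biological without saying whether they were separate cultures, and p-values measure only the spread among these libraries, which may be technical in part. ERH itself averaged 298.5 ± 30.8 CPM (TMM-scaled counts per 1e6 counts of a library, mean ± SD) in sgERH NT and 636 ± 9.26 CPM in sgAAVS1 NT, a log2 fold change of −1.09. Over the 15 libraries each sgERH library was below each sgAAVS1 library in ERH, and how the counted 3′ end lies to the Cas9 cut was not examined. Of 10 epithelial and colon markers, 4 (KRT8, KRT18, EPCAM and CDX2) had at least 10 reads in every library used and KRT19, CDX1 and KRT20 had none in any. Their summed level was 100.5 to 124 CPM in sgERH and 127 to 157 CPM in sgAAVS1 libraries, a sum carried by KRT18 (290 to 395 reads in sgERH and 418 to 626 reads in sgAAVS1 libraries). EPCAM had 73 to 117 reads in sgERH and 23 to 39 reads in sgAAVS1 libraries, and CDX2 had 56 to 97 reads in sgERH and 30 to 47 reads in sgAAVS1 libraries, so that the markers differed in both directions. Their part in the results below was not tested. Of 15 fibroblast, endothelial, adipocyte and hepatocyte markers no gene had more than 3 reads in a library, with summed levels of at most 0.850 CPM in sgERH and 0.410 CPM in sgAAVS1 for any list. Of 5 leukocyte markers only CD68, a lysosomal protein made by many cell types, was well above that, at 387 to 486 CPM over the 15 libraries.

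The promoters of 5 members that differed between guides are shown here, chosen after their values were seen, because NF-Y acts on this pathway through the box that each of them carries. They are members with 1 RefSeq start of transcription in the table, on the + strand. FADS2 and SC5D, which also differed, have 2 starts each and are not shown. Each line gives bases of the + strand from 200 bases before the RefSeq start of transcription, up to that start or to the first exon that GENCODE 44 annotates in that span, in GRCh38.p14 and 5′ to 3′. For MVK, GENCODE 44 starts the gene earlier, at chr12:109573255, so that its stretch lies inside the annotated gene. Capitals mark CCAAT, the NF-Y box, read on either strand (ATTGG on the strand shown), and in SREBF2 also the sterol regulatory element of SREBP, searched as TCACNCCAC. The other stretches held no match to that element.
INSIG1, chr7:155297678-155297775: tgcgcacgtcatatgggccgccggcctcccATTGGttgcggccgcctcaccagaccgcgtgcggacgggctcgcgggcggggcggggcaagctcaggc
MVK, chr12:109573594-109573792: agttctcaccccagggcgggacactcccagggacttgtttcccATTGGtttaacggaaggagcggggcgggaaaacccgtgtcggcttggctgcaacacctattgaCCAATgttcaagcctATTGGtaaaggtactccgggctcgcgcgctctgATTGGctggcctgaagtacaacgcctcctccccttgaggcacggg
MSMO1, chr4:165327469-165327666: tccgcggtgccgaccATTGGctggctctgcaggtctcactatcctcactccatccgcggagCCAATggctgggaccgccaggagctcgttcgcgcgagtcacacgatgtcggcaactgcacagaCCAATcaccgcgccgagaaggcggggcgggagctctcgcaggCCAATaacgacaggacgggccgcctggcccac
FDPS, chr1:155308666-155308747: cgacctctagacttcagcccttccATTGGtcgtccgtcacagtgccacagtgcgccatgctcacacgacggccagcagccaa
SREBF2, chr22:41832905-41833104: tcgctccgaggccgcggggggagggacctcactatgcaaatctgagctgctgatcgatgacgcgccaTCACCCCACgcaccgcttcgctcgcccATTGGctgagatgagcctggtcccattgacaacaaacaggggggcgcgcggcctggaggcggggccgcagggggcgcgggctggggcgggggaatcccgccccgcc
The MVK (199 bases) and MSMO1 (198 bases) stretches each held 4 NF-Y boxes. The shorter FDPS (82 bases) and INSIG1 (98 bases) stretches held 1 each. The SREBF2 stretch (200 bases) held 1 NF-Y box and 1 sterol regulatory element. In the windows of fixed length described next, MVK had 5 NF-Y boxes, MSMO1 4, FDPS 3, INSIG1 1 and SREBF2 1.

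Over windows of fixed length around the RefSeq start of transcription, which include the first bases of the transcript, there were 38 windows for 28 of the 31 members. FDFT1, SQLE and FASN were the 3 without an entry. CCAAT on either strand was found in 26 of the 38 windows (68.4%), against 34.6% of all 35116 windows. GGGCGG, the GC box bound by SP1-type factors, was in 33 of the 38 (86.8%), against 45.0% of all windows. TCACNCCAC was in 1 of the 38, the SREBF2 window, against 1.13% of all windows. Such matches are descriptions of letters and not of bound sites. NF-Y boxes stood in promoters of genes that were higher in sgERH (INSIG1, MVK and MSMO1) and of genes that were lower (FDPS and SREBF2).

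Some libraries stood apart, in these genes and over all genes tested. In the left-out library labelled sgAAVS1 NT replicate 1, 13 of the 29 tested members were at least 2-fold lower and 5 at least 2-fold higher than the mean of the other libraries of the group. SREBF1 had 0 reads there, and SCAP had 2.89 CPM, a log2 difference of −4.89. The left-out sgERH IFNγ replicate 2 also deviated (9 members at least 2-fold lower, 1 higher), with log2 differences of −3.14 for SCAP and −2.62 for CYP51A1. The library sgERH IL-1β replicate 2, which was kept, deviated along the same pattern on a smaller scale. Against the other libraries of its group its log2 difference was −1.03 for CYP51A1 and −0.89 for SREBF1. Across the 29 members the deviations of the 2 left-out libraries correlated at Pearson r = 0.89, and those of sgERH IL-1β replicate 2 at 0.83 and 0.84 with each of them. Over all 13370 genes tested the same 3 correlations were 0.78, 0.61 and 0.71, so the shared pattern was not limited to lipid genes. The third left-out library, sgAAVS1 IL-1β replicate 3, did not share it (r between −0.15 and 0.01 with each of the other libraries). Both left-out libraries that shared the pattern were low in ERH before TMM scaling. ERH had 126 CPM in sgERH IFNγ replicate 2 and 52.7 CPM in the library labelled sgAAVS1 NT replicate 1. The lowest library used was sgERH IL-1β replicate 2 (257 CPM). Multimapping reads were 24.0% in sgERH IFNγ replicate 2 and 26.3% in the library labelled sgAAVS1 NT replicate 1. Genes with at least 10 reads numbered 11187 and 9657 there, and 11842 or more in each library used. Multimapping in the libraries used was 20.4% to 23.2%, highest in sgERH IL-1β replicate 2, and it was 20.8% in sgAAVS1 IL-1β replicate 3. Whether the pattern goes with ERH level or with these library values was not tested. The main values under IL-1β are also given without sgERH IL-1β replicate 2.

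**Figure D1:**
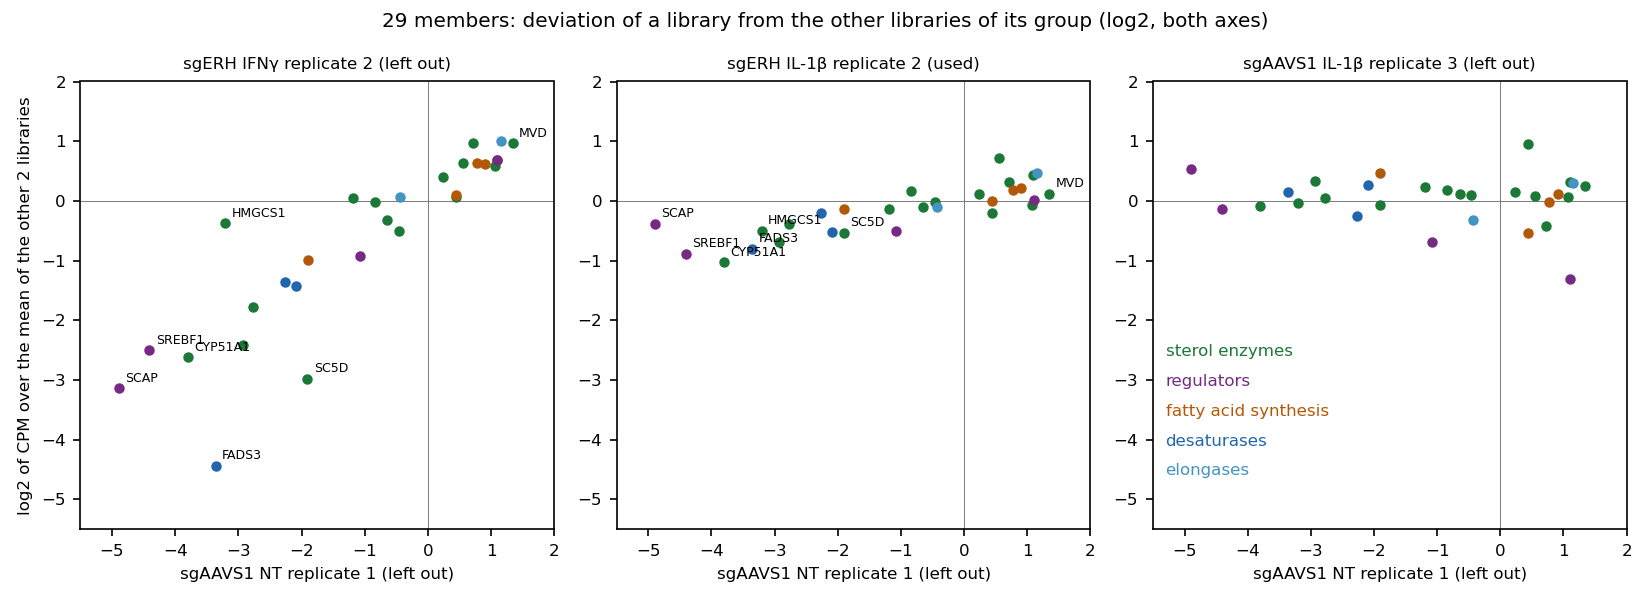
Deviation of single libraries from the mean of the other 2 libraries of their group, for the 29 tested members (log2 of CPM, pseudocount 0.5; points coloured by role). The x axis is the left-out library labelled sgAAVS1 NT replicate 1 in every panel, and the y axes are sgERH IFNγ replicate 2 (left out), sgERH IL-1β replicate 2 (used) and sgAAVS1 IL-1β replicate 3 (left out). The first 2 panels follow a rising line (r = 0.89 and 0.83) and the third does not (r = −0.15).

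ERH targeting changed few of these transcripts by more than 2-fold, and those it changed moved in both directions. INSIG1, the sterol sensor that retains SREBP, and MVK, mevalonate kinase, rose on average over the 3 treatments, 2.17-fold and 2.15-fold higher than in sgAAVS1. FADS2, the delta-6 desaturase of polyunsaturated fatty acid synthesis, fell in every treatment, with a log2 fold change of −1.82 ± 0.18 (SE) on average. Here and below a gene is said to have risen or fallen where edgeR's quasi-likelihood test gave a Benjamini-Hochberg adjusted p of at most 0.05 over all 13370 genes together with a log2 fold change of 1 or more in size. By that rule 2 of the 29 members rose and 1 fell on average over treatments, where 6.75% of all genes rose and 2.14% fell. In non-treated cells 2 members rose and 1 fell, against 5.95% and 2.3% of all genes. With IFNγ 3 rose and 2 fell, against 5.24% and 2.37%, and with IL-1β 2 rose and 1 fell, against 5.68% and 2.8%. At 1 to 3 genes in each direction these counts do not set the members apart from the transcriptome, and 23 of the 29 were called in none of the 4 comparisons. The counts with IL-1β were the same without sgERH IL-1β replicate 2, although INSIG1 (1.02) then took the place of MVD, beside MVK (1.36) and FADS2 (−1.69). With the 3 left-out libraries put back, the members called were INSIG1 and FADS2 in non-treated cells, MVK with IFNγ, INSIG1 and MVK with IL-1β, and INSIG1 and FADS2 on average.

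Below the fold threshold more members differed. At the adjusted p alone, 12 of 29 were higher in sgERH on average over treatments and 7 were lower, where 25.5% of all genes were higher and 23.2% lower (19 of 29 in either direction, against 48.7%). In non-treated, IFNγ and IL-1β cells 11, 12 and 13 of the 29 passed the adjusted p in either direction, against 26.1%, 25.0% and 26.5% of all genes. The median log2 fold change of the 29 was 0.06, beside 0.04 over all genes. The direction was the same in all 3 treatments for 19 of the 29. That share was not counted over all genes, so it only describes these members. In 3 members (MVK, SQLE and MSMO1) each of the 8 sgERH libraries lay above each of the 7 sgAAVS1 libraries, which held for 8.1% of all genes. In 4 (FDPS, SREBF2, ACLY and FADS2) each sgERH library lay below each sgAAVS1 library, which held for 9.56% of all genes. In bulk RNA a lower count cannot tell fewer cells that express a gene from less RNA per cell. TMM scaling sets the zero of these values. Scaled by total counts alone, the median over all genes moved to 0.20 on average over treatments, with 1239 genes risen and 160 fallen where TMM gave 903 and 286. That scaling gave 1173 risen and 140 fallen in non-treated cells (795 and 307 with TMM), 1004 and 199 with IFNγ (700 and 317 with TMM) and 1015 and 227 with IL-1β (760 and 374 with TMM). Of the 29 members, HMGCS1, PMVK and SCAP changed sign between the 2 scalings, to values of at most 0.16.

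**Figure D2:**
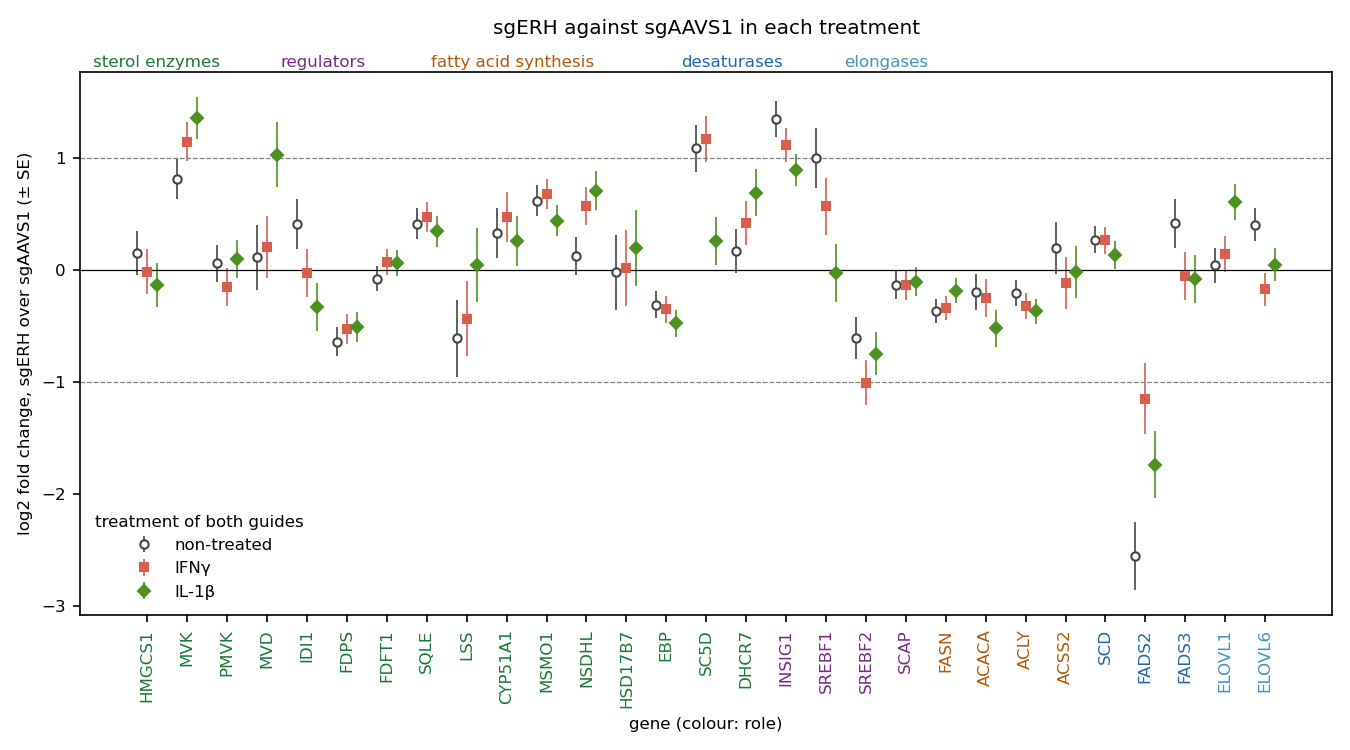
Log2 fold change of sgERH over sgAAVS1 (± SE) for the 29 tested members in non-treated, IFNγ and IL-1β cells, with gene names coloured by role and dashed lines at log2 values of 1 and −1. FADS2 lies below −1 in all 3 treatments, and INSIG1 and MVK lie between 0.81 and 1.36.

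The 4 regulators went in different directions (median 0.19). On average over treatments 1 rose and 0 fell, against 6.75% and 2.14% of all genes. INSIG1 (chr7:155297776-155310235) had 58.3, 62.0 and 59.0 CPM in sgERH NT and 25.6 and 21.6 CPM in sgAAVS1 NT. With IFNγ it had 60.7 and 62.3 CPM in sgERH, against 30.7, 26.7 and 27.9 CPM in sgAAVS1. With IL-1β it had 110.2, 82.7 and 114 CPM in sgERH, against 61.2 and 49.4 CPM in sgAAVS1. The guides did not overlap within any treatment, with 2 or 3 libraries in a group. Here and below, the share of all genes without overlap within a treatment was not counted. Such statements therefore only describe these libraries. INSIG1 rose in non-treated cells (log2 fold change 1.34 ± 0.16, edgeR adjusted p = 4.7e-07) and with IFNγ (1.11 ± 0.15, edgeR adjusted p = 3.3e-06). With IL-1β the value was 0.89 ± 0.15, short of the fold threshold, and it was 1.02 and called without sgERH IL-1β replicate 2.

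SREBF2, which encodes the SREBP isoform that mainly drives cholesterol synthesis (chr22:41833105-41907306), ran the other way. It had 15.8, 19.5 and 21.8 CPM in sgERH NT and 30.2 and 27.9 CPM in sgAAVS1 NT. With IFNγ it had 14.6 and 13.8 CPM in sgERH, against 29.1, 25.8 and 31.1 CPM in sgAAVS1. With IL-1β it had 19.6, 17.3 and 13.5 CPM in sgERH, against 26.4 and 30.1 CPM in sgAAVS1. Every sgERH library was below every sgAAVS1 library. It fell with IFNγ (−1.01 ± 0.20, edgeR adjusted p = 4.3e-04), at the edge of the fold threshold. Where 1 of 2 libraries of a group is left out, here and below, the spread of the lone library is taken from the other groups. The value was −0.97 without sgERH IFNγ replicate 3, −0.998 and no longer called without sgAAVS1 IFNγ replicate 1, −0.95 without sgAAVS1 IFNγ replicate 3 and −0.86 when scaled by total counts alone. With IL-1β it was −0.75, and −0.77 without sgERH IL-1β replicate 2. On average over treatments it was −0.79 ± 0.11 (edgeR adjusted p = 1.3e-06).

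SREBF1, which encodes the isoform tied more to fatty acid synthesis, lay just short of the fold threshold in non-treated cells. It had 20.4, 22.0 and 23.6 CPM in sgERH NT and 11.3 and 10.7 CPM in sgAAVS1 NT, or 0.997 ± 0.27 on the log2 scale (edgeR adjusted p = 0.0062). Under IL-1β SREBF1 had 13.1, 9.91 and 22.6 CPM in sgERH, against 12.3 and 18.9 CPM in sgAAVS1, and the groups overlapped (−0.03 ± 0.26, and 0.20 without sgERH IL-1β replicate 2). With IFNγ the value was 0.56 ± 0.26 (edgeR adjusted p = 0.11). SCAP did not pass the test on average (−0.13 ± 0.08, edgeR adjusted p = 0.17), with 87.9 to 112 CPM in the 8 sgERH libraries and 98.7 to 133 CPM in the 7 sgAAVS1 libraries.

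Among the 16 sterol enzymes the values leaned to the higher side in sgERH without rising as a block. On average over treatments 1 rose and 0 fell, where 6.75% of all genes rose and 2.14% fell. By adjusted p only 8 were higher and 2 were lower, where 25.5% of all genes were higher and 23.2% lower. Their median log2 fold change was 0.21, beside 0.04 over all genes. Their summed level was 738.6 to 827 CPM in the sgERH libraries and 687 to 798 CPM in the sgAAVS1 libraries, and the guides overlapped over the pooled treatments. Within each treatment every sgERH sum was above every sgAAVS1 sum, at 807 to 827 against 740.5 to 798 CPM in NT, 792 to 827 against 687 to 726 CPM with IFNγ and 739 to 810.3 against 713 to 722 CPM with IL-1β. LSS, HSD17B7 and HMGCS1 share reads with other loci (97.7%, 75.4% and 12.6% of their reads were multimapping), so that their values are uncertain. On average LSS, lanosterol synthase, was at −0.34 ± 0.19 and HSD17B7, a sterol ketone reductase, at 0.06 ± 0.19, and neither passed the test. Without multimapping reads LSS was not tested, and the median of the other 15 enzymes was 0.35. The median of 0.21 fell in a gap between HSD17B7 (0.06) and CYP51A1 (0.35), so that the loss of LSS alone shifts it.

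In the mevalonate steps MVK was the clearest. MVK (chr12:109573255-109598125), which phosphorylates mevalonate, had 32.5, 33.3 and 36.4 CPM in sgERH NT and 19.5 and 19.4 CPM in sgAAVS1 NT. With IFNγ it had 28.7 and 38.7 CPM in sgERH, against 14.8, 15.5 and 15.6 CPM in sgAAVS1. With IL-1β it had 34.9, 33.0 and 31.6 CPM in sgERH, against 11.3 and 14.6 CPM in sgAAVS1. Over all treatments the lowest sgERH library (28.7 CPM) was above the highest sgAAVS1 library (19.5 CPM). MVK rose with IFNγ (1.14 ± 0.17, edgeR adjusted p = 1.9e-05), with IL-1β (1.36 ± 0.19, edgeR adjusted p = 4.6e-06) and on average (1.10 ± 0.10, edgeR adjusted p = 1.2e-09). The value with IFNγ was 0.90 and short of the fold threshold without sgERH IFNγ replicate 3. In non-treated cells it was 0.81 ± 0.18 (edgeR adjusted p = 0.0011). The left-out sgAAVS1 NT replicate 1 had 38.0 CPM of MVK before TMM scaling, and with all 18 libraries the average was 0.97.

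MVD, mevalonate diphosphate decarboxylase (chr16:88651935-88663161), differed between guides with IL-1β. Under IL-1β MVD had 17.3, 15.8 and 10.5 CPM in sgERH, against 5.85 and 8.41 CPM in sgAAVS1, and it rose (1.03 ± 0.29, edgeR adjusted p = 0.0088). Without sgERH IL-1β replicate 2 the value was 0.96, without sgERH IL-1β replicate 1 it was 0.88 and without sgAAVS1 IL-1β replicate 1 it was 0.78, each no longer called, and fitted on its own groups alone it had an edgeR adjusted p of 0.0505. In non-treated cells it had 8.53, 8.11 and 8.67 CPM in sgERH NT, against 6.09 and 9.43 CPM in sgAAVS1 NT (0.11 ± 0.29), and with IFNγ 12.2 and 9.08 CPM in sgERH, against 9.56, 7.65 and 10.7 CPM in sgAAVS1 (0.20 ± 0.28). HMGCS1, which makes HMG-CoA, PMVK, the next kinase, and IDI1, the isomerase, averaged −0.0020 ± 0.11, −0.0011 ± 0.10 and 0.015 ± 0.13 on the log2 scale. FDPS, farnesyl diphosphate synthase, was lower in sgERH, with 58.8 to 85.6 CPM in the 8 sgERH libraries and 93.3 to 119 CPM in the 7 sgAAVS1 libraries. Its average was −0.56 ± 0.08 (edgeR adjusted p = 7.9e-07), short of the fold threshold, so that MVK and FDPS, enzymes of the same branch, differed in opposite directions.

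From squalene onward several enzymes were moderately higher. FDFT1, squalene synthase, averaged 0.02 ± 0.07, with 116 to 147 CPM in sgERH and 128 to 152 CPM in sgAAVS1 libraries. SQLE, the epoxidase that follows it, had 57.7 to 75.3 CPM in sgERH and 42.4 to 55.9 CPM in sgAAVS1 libraries (0.41 ± 0.08, edgeR adjusted p = 1.0e-04). MSMO1, a C4-methyl sterol oxidase, had 62.9 to 82.1 CPM in sgERH and 46.3 to 56.3 CPM in sgAAVS1 libraries (0.58 ± 0.08, edgeR adjusted p = 7.5e-07). Neither overlapped between guides, and neither reached the fold threshold in a treatment. CYP51A1, the lanosterol demethylase (0.35), NSDHL, which works beside MSMO1 (0.47), and DHCR7, which completes cholesterol (0.42), were also higher at the adjusted p alone, and EBP, the sterol isomerase, was lower (−0.38 ± 0.07). NSDHL had 48.6 to 77.8 CPM in sgERH and 35.9 to 52.4 CPM in sgAAVS1 libraries, and EBP had 54.5 to 79.3 CPM in sgERH and 75.3 to 94.5 CPM in sgAAVS1 libraries. For both genes the guides overlapped over the pooled treatments and did not overlap within any treatment, with 2 or 3 libraries in a group. CYP51A1 with IL-1β was 0.25, and 0.51 without sgERH IL-1β replicate 2, in which it had 68.6 CPM while the other libraries of the group had 129 and 140.4 CPM.

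SC5D, the sterol desaturase that places the C5 double bond (chr11:121292681-121313410), rose in non-treated cells and with IFNγ. It had 30.4, 29.02 and 31.6 CPM in sgERH NT and 15.1 and 13.6 CPM in sgAAVS1 NT (1.08 ± 0.21, edgeR adjusted p = 3.7e-04). With IFNγ it had 27.6 and 31.1 CPM in sgERH, against 11.6, 16.6 and 10.7 CPM in sgAAVS1 (1.17 ± 0.21, edgeR adjusted p = 1.2e-04). The groups, of 2 or 3 libraries each, did not overlap in either treatment. Under IL-1β SC5D had 22.3, 15.3 and 20.4 CPM in sgERH, against 14.3 and 18.04 CPM in sgAAVS1, and the groups overlapped (0.26 ± 0.21, and 0.40 without sgERH IL-1β replicate 2). The difference between guides in its IL-1β response, −0.83, did not pass the test (edgeR adjusted p = 0.36) and was −0.69 without that library.

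The 4 enzymes of fatty acid synthesis went the other way from the sterol median, by a small amount. None was called in any treatment. On average over treatments 3 of the 4 (FASN, ACACA and ACLY) were lower at the adjusted p alone and 0 were higher. Over all genes 23.2% were lower and 25.5% higher. FASN, the fatty acid synthase, was at −0.30 ± 0.06, and ACACA, the acetyl-CoA carboxylase, at −0.32 ± 0.10. ACLY, the citrate lyase that supplies cytosolic acetyl-CoA, was at −0.30 ± 0.07. ACSS2, the acetyl-CoA synthetase, was at 0.02 ± 0.13, and the median of the 4 was −0.30, or −0.14 when scaled by total counts alone. Of the ACACA reads 99.8% were multimapping, which leaves its value uncertain. The summed level of the 4 genes was 361 to 399.7 CPM in the 8 sgERH libraries and 431 to 499 CPM in the 7 sgAAVS1 libraries, without overlap. FASN had 174 to 221 CPM in sgERH and 215 to 243 CPM in sgAAVS1 libraries, and the highest of these sgERH libraries was sgERH IL-1β replicate 2.

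**Figure D3:**
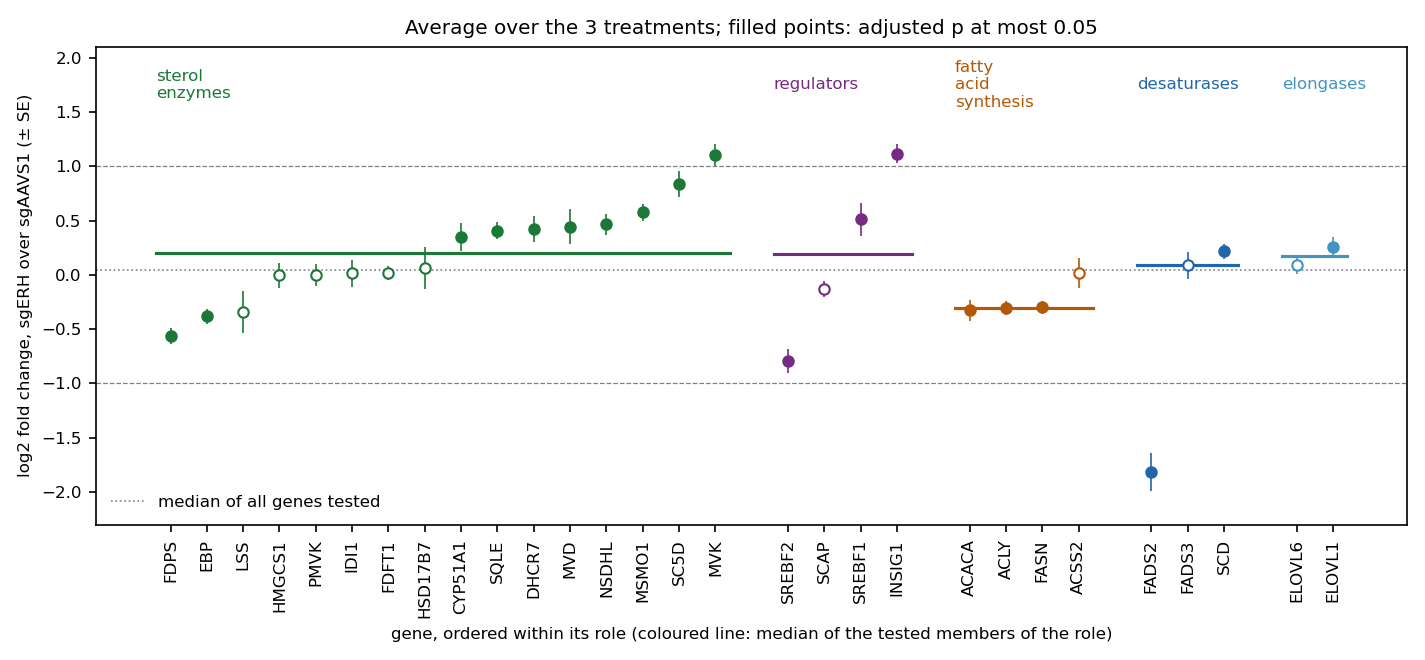
Log2 fold change of sgERH over sgAAVS1 averaged over the 3 treatments (± SE), by gene within each role, with filled points at an adjusted p of at most 0.05, coloured lines at the median of the tested members of a role and dashed lines at an absolute value of 1. The medians are 0.21 for sterol enzymes, 0.19 for regulators, −0.30 for fatty acid synthesis, 0.09 for desaturases and 0.18 for elongases, against 0.04 for all genes (dotted line).

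The desaturases and elongases did not move as a group. Of the 5 tested members 0 rose and 1 fell on average over treatments, where 6.75% of all genes rose and 2.14% fell. By adjusted p only 2 were higher and 1 was lower, where 25.5% of all genes were higher and 23.2% lower. Their median was 0.09, beside 0.21 for the sterol enzymes. FADS2 was the 1 member of the 5 to be called in any treatment. FADS2 (chr11:61792980-61867354) had 3.65, 1.98 and 2.38 CPM in sgERH NT and 15.3 and 16.3 CPM in sgAAVS1 NT. With IFNγ it had 4.25 and 4.00 CPM in sgERH, against 9.77, 7.84 and 10.0 CPM in sgAAVS1. With IL-1β it had 4.07, 3.62 and 4.04 CPM in sgERH, against 9.69 and 16.6 CPM in sgAAVS1. These values come from few reads, 11 to 23 in an sgERH library and 42 to 90 in an sgAAVS1 library, and the guides did not overlap. FADS2 fell in non-treated cells (−2.55 ± 0.30, edgeR adjusted p = 4.9e-07), with IFNγ (−1.15 ± 0.32, edgeR adjusted p = 0.0090), with IL-1β (−1.74 ± 0.30, edgeR adjusted p = 8.3e-05) and on average (edgeR adjusted p = 2.7e-09). With IFNγ the call was lost without sgERH IFNγ replicate 1 (−1.20, edgeR adjusted p = 0.063) or replicate 3 (−1.11, edgeR adjusted p = 0.074).

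FADS2 lies in a cluster with FADS1, the delta-5 desaturase (chr11:61799627-61829318, on the opposite strand and inside the FADS2 locus), and FADS3 (chr11:61873519-61892051), a related desaturase. Whether the counting used strand is not given in the sources used here, so reads of overlapping FADS1 and FADS2 transcripts may not be told apart. FADS1 had 1 read in all 15 libraries together, in its window of 1538 bases, and ELOVL5, an elongase of polyunsaturated fatty acids, had 0 in its window of 506 bases. A limit of 3 reads in a library corresponds to 0.501 to 0.602 CPM, for counting error only, and 3′ ends outside these windows were not counted. FADS3, the neighbour of FADS2, averaged 0.09 ± 0.12, with 17.7 to 32.0 CPM in sgERH and 21.2 to 29.7 CPM in sgAAVS1 libraries. SCD, the delta-9 desaturase that makes oleic acid, was higher at the adjusted p alone (0.22 ± 0.07), as was ELOVL1, an elongase of very long saturated chains (0.26 ± 0.09). ELOVL6, which lengthens palmitate and of whose reads 17.8% were multimapping, averaged 0.09 ± 0.09. SCD had 119 to 178 CPM in sgERH and 125 to 143 CPM in sgAAVS1 libraries, and its lowest library was sgERH IL-1β replicate 2. ELOVL1 had 47.04 to 86.7 CPM in sgERH and 43.4 to 52.8 CPM in sgAAVS1 libraries, and its highest library was the same one. Without that library the average of ELOVL1 was 0.19 and that of SCD 0.26.

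Few of these genes passed the test in a response to a cytokine. IL-1β raised INSIG1 in sgAAVS1 cells, to 55.3 ± 8.31 CPM with IL-1β, against 23.6 ± 2.85 CPM in NT (1.23 ± 0.17, edgeR adjusted p = 9.1e-05; SD, n = 2 each). It was the 1 member of 29 called in that comparison, in which 0.636% of all genes were called. In sgERH cells INSIG1 averaged 102 ± 17.1 CPM with IL-1β and 59.8 ± 1.97 CPM in NT (SD, n = 3 each), a difference of 0.78 ± 0.13 (edgeR adjusted p = 8.1e-04) that was short of the fold threshold, and 0.90 without sgERH IL-1β replicate 2. The difference between guides in this response did not pass the test (−0.45 ± 0.21, edgeR adjusted p = 0.43) and was −0.33 without that library. For IL-1β in sgERH 0 of 29 members were called, against 0.292% of all genes, with 6 at an unadjusted p under 0.05 and 0 called by DESeq2, and 0 were called without that library.

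With IFNγ 0 of 29 members were called in sgERH, against 0.015% of all genes, and 0 of 29 in sgAAVS1, against 0.598%. Before adjustment 1 and 2 members had p under 0.05, and DESeq2 called 0 in each. The guides differed in the IFNγ response of 0 members, against 0.202% of all genes, and in the IL-1β response of 0 members, against 0.0% of all genes by edgeR. Before adjustment, 2 and 8 members had p under 0.05, and DESeq2 called 0 members in each. Over all genes edgeR called 0 in the guide difference of the IL-1β response, with 1487 at p under 0.05 before adjustment, and DESeq2 called 1. The 8 members included SREBF1 (−1.03 ± 0.37, edgeR adjusted p = 0.35). Its value was −1.43 and called without sgERH IL-1β replicate 3 and smaller in size, −0.80, without sgERH IL-1β replicate 2. The largest of these differences in size was that of FADS2 in the IFNγ response (1.40 ± 0.45, edgeR adjusted p = 0.57).

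The wider pathway held 54 other genes, of which 45 were tested. None was called on average over treatments, in either direction, where 6.75% of all genes rose and 2.14% fell; 21 had an unadjusted p under 0.05. By adjusted p only 11 of the 45 were higher and 7 were lower, where 25.5% of all genes were higher and 23.2% lower. The median of the 45 was 0.12, beside 0.04 over all genes. The values of 2 of them, chosen after they were seen, belong to enzymes of the same sterol step. LBR, an inner nuclear membrane protein with sterol C14 reductase activity, was at −0.79 ± 0.12 on the log2 scale on average over treatments. TM7SF2, the other C14 reductase, was at 0.50 ± 0.09 on the same scale.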

How the data were processed

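RNA from 18 libraries was sequenced by QuantSeq. The authors deposited raw counts per gene symbol, with the multimapping reads among them, and CPM values, scaled to each library's summed counts, which were not used in any test. Per the paper's methods and the submitters' processing notes, reads were trimmed (Trim Galore 0.6.2), checked (FastQC 0.11.8) and counted with SlamDunk in 3′ end windows built with 3-GAmES on GRCh38 RefSeq and Ensembl models. Reads were not collapsed by molecular identifiers as far as the sources used here state, and strand use in counting is not given in them. The 3 libraries that the study excluded were left out (4987127 to 5986338 counts in the 15 used, 3811492 to 11821239 in the 3 left out).

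One edgeR 4.0.16 quasi-likelihood model (R 4.3.3, TMM scaling, filterByExpr, robust dispersion, no replicate block) of the 6 groups tested 13370 genes, and "average" is the mean of the 3 within-treatment contrasts. Calls needed a Benjamini-Hochberg adjusted p of at most 0.05 with a log2 fold change of 1 or more in size, which are the study's thresholds. It was tested on simulated data with known changes. Alternatives were DESeq2 1.42.0, DESeq2 size factors, total counts, no filter, counts without multimapping reads, all 18 libraries, only the groups compared, a replicate block, no fold threshold and leaving out each library. Members called between guides were given per library and the others by range. The members, the list of other pathway genes, the motifs and the markers were chosen with earlier results of these data known. Genes of the wider list were to be named where called, and 2 were named outside that rule. An item withheld for evaluation is not reported here. Promoters came from RefSeq (GRCh38.p14) and gene positions from GENCODE 44.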

Additional observations from a re-analysis of the deposited data

How the results depend on the processing

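No value of a called member reversed its direction under any alternative: of 342 values over 15 results, 322 kept their call and 20 kept their direction but lost it. Many of the 342 come from leaving out 1 library, often 1 outside the groups compared. Such a library enters the value mainly through the scaling and the shared spread. The 322 are therefore not independent checks. Using all 18 libraries was the alternative that lost a call most often. Without the fold threshold 11 members passed in non-treated cells, 12 with IFNγ, 13 with IL-1β and 19 on average over treatments, of 29 each, against 26.1%, 25.0%, 26.5% and 48.7% of all genes, and 1 (INSIG1) in the IL-1β response of sgERH cells, against 0.957% of all genes. With all 18 libraries 1 member (MVK) was called with IFNγ and 0 in the IL-1β response of sgAAVS1 cells, where INSIG1 was at 1.28 (edgeR adjusted p = 0.17). With all 18 libraries FADS2 with IFNγ was at −1.51 (edgeR adjusted p = 0.096) and SC5D in non-treated cells at 1.46 (edgeR adjusted p = 0.11); the cause was not tested. Leaving out 1 library gave 2 to 5 called members with IFNγ, with 2 (INSIG1 and SC5D) without sgERH IFNγ replicate 3, and 0 to 1 in the guide difference of the IL-1β response (SREBF1, without sgERH IL-1β replicate 3). The median of the sterol enzymes was 0.36 by total counts alone and 0.35 without multimapping reads, where LSS was not tested. That of the desaturases and elongases was 0.25 by total counts alone and 0.067 to 0.19 when 1 library was left out, so that the order of the 2 medians held by total counts. Fitting only the groups compared was not run for the average, where it is the same fit.

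With the replicate number as a block, 4 members were called in non-treated cells (SREBF1 added), 5 with IFNγ, 3 with IL-1β and 3 on average, the medians were 0.20 and 0.08, and no call was lost. The numbers showed no clear pairing of the libraries. Of 30 same-numbered pairs of libraries, 1 correlated at over 0.1 in the deviations from the group means (median 0.0069). Of 15 libraries, 6 correlated best with their own number. In the groups of 2 libraries the 2 deviations mirror each other, so this check could miss a weak pairing. FADS2 rested on 11 to 23 reads in an sgERH library, and FADS1 and ELOVL5 were too thinly counted for a comparison.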
